A study of Mus musculus with 12 samples.

Results

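Cell division genes were described here across the hearts of Balb/c mice given DMA or its vehicle. The set holds 45 genes named for their part in mitosis or in DNA replication, taken as every probe whose platform symbol is one of these names, with the brightest probe standing for a gene. Of the 45 genes, 43 had a probe of 1 symbol and 42 were tested, out of 17679 genes tested in all. Ccnb1 had no such probe, Tyms had a probe with several symbols only, and Cenpa had too few values. The 42 tested members were 30 mitotic genes and 12 genes of S phase, the time of DNA synthesis.

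Mice of the inbred strain Balb/c received 1 gavage of 30 mg/kg DMA, a compound whose name the labels do not expand, or of DMSO, the vehicle. Hearts were taken at 48 h or at 24 h, which gave 4 groups of 3 arrays: DMA 48 h, DMA 24 h, DMSO 48 h and DMSO 24 h. The labels number the arrays of a group as biological replicates, while the design text says that the RNA of a group was pooled, so the p-values measure the spread between these samples, which may be technical. The sex and age of the animals are not given in the sources used here.

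A dividing cell first licenses its replication origins with the MCM helicase, copies its DNA in S phase, and then separates the chromosomes in mitosis under the kinase Cdk1 and its cyclins. In the adult heart nearly all cardiomyocytes have left the cell cycle, and cells that still divide are mostly endothelial cells, fibroblasts and immune cells. Many mitotic genes are held under a promoter element called CHR together with CCAAT boxes, and many S phase genes under E2F sites.

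Promoters of 4 members on which the results turn are shown, since the mitotic and the S phase members differ in these elements. They come from RefSeq on GRCm38.p6, from 250 bases before to 50 bases after the gene start, written 5′ to 3′ along the gene. Cdc20 lies at chr4:118437294-118437593 on the minus strand, Ccnb2 at chr9:70421505-70421804 on the minus strand, Cdk1 at chr10:69352863-69353162 on the minus strand and Mcm5 at chr8:75109259-75109558 on the plus strand. Capitals mark the letters TTTGAA (CHR), CCAAT or an E2F match on either strand.
Cdc20: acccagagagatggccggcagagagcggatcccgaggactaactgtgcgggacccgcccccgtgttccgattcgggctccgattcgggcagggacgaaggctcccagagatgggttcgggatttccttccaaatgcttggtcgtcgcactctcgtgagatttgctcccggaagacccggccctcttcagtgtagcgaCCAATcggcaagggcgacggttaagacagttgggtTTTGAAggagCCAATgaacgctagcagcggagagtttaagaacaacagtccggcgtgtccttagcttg
Ccnb2: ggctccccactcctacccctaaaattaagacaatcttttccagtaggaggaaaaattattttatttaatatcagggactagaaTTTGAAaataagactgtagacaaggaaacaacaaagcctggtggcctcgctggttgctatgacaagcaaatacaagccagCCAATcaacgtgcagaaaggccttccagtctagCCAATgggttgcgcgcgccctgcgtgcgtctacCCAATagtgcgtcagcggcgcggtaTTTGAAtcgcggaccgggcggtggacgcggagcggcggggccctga
Cdk1: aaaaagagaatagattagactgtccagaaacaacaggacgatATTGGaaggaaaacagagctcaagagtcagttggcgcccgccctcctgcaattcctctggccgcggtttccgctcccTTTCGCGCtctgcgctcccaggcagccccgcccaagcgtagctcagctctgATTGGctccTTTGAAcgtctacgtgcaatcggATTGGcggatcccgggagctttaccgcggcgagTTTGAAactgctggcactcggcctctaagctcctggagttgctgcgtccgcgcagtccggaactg
Mcm5: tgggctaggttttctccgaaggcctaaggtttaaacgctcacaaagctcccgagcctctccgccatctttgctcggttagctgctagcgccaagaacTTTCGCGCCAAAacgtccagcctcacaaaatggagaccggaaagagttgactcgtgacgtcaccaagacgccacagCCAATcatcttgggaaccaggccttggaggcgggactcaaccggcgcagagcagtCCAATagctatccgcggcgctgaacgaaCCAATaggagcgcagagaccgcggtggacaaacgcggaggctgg

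Cdc20 carried 1 CHR match close to its start and 2 CCAAT matches. Ccnb2 and Cdk1 carried 2 CHR and 3 CCAAT matches each, and Cdk1 also 1 E2F match. Mcm5 carried no CHR match, 3 CCAAT matches and 2 E2F matches that overlap each other. RefSeq promoters were found for 38 members, with 40 entries in all, since Prc1 and Mcm7 had 2 each. CHR was present in 21 of 28 mitotic promoters (75%) and in 1 of 12 S phase promoters (8.33%), against 17.9% of all 32851 promoters of the same length. The promoters shown do not stand for every mitotic member: Nusap1, Birc5, Mad2l1 and Melk had no CHR, CCAAT or E2F match. CCAAT was present in 80.0% of the members' promoters, against 37.4% of all. One of the E2F letters TTTCCCGC, TTTCGCGC, TTTGCCGC or TTTGGCGC, on either strand, was present in 41.7% of the S phase promoters and 10.7% of the mitotic promoters, against 2.26% of all. Such a match is a description of the letters and does not show that a factor binds there.

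The values are log2 intensities, and 35401 of 36227 probes were tested. The median of an array was 6.35 to 6.36 for the 48 h arrays and 6.03 to 6.04 for the 24 h arrays, so the table has the form of one scaled within each time. All 12 arrays were therefore brought to 1 distribution before the times were compared, and any difference between the times and a difference in how the 2 sets of arrays were handled cannot be told apart. One array, DMA 24 h replicate 3, stood apart: its correlation with the rest of its time was 0.742, and that of the other 11 arrays was 0.927 to 0.963. Beside a difference or list median in which it takes part, the value without it is given where it moves by over 1.5 times or changes sign. Another array, DMSO 24 h replicate 1, lacked 3997 values, and the other arrays lacked 322 to 2498. Cdc20, Top2a, Pcna, Ncapd2, Cdca8 and Rrm2 had no value on DMSO 24 h replicate 1. Of 15 cardiomyocyte markers only 5 could be tested, so the tissue was checked in part only. By a rough mark of weak signal, the 90% quantile of 89 probes of vomeronasal receptors (6.64), 21 of the 42 members were brighter and 21 were not. Weak S phase members were Ccne1, Ccne2, Mcm2, Mcm6, Mcm7 and Rrm1. Weak mitotic members were Foxm1, Plk1, Aurka, Aurkb, Bub1, Bub1b, Ttk, Cdc20, Kif20a, Kif23, Kif2c, Tpx2, Cenpe, Top2a and Ncapg.

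**Figure D1:**
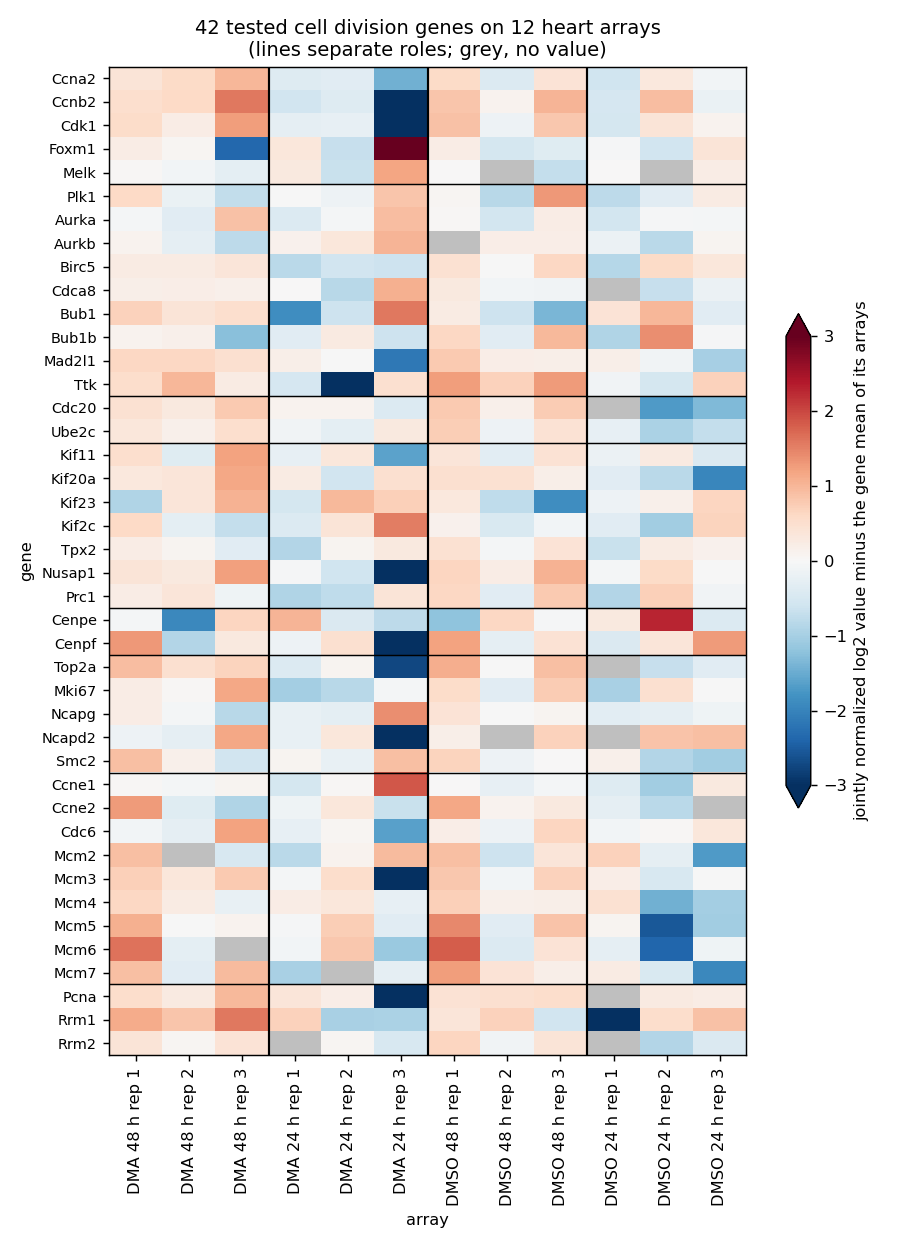
Jointly normalized log2 value of each of the 42 tested members (rows, grouped by role) on each of the 12 arrays (columns), minus the mean of the gene over its arrays; red is above that mean, blue below it and grey has no value. Most rows are redder on the 48 h arrays than on the 24 h arrays, DMA 24 h replicate 3 has several members far below and others far above the rest, and DMSO 24 h replicate 2 is low for Mcm5 and Mcm6 and high for Mki67 and Bub1b.

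Between the times, vehicle hearts at 48 h had higher values than vehicle hearts at 24 h for most cell division genes, although no single gene passed the test and 1 of the 3 arrays at 48 h showed it weakly. Of 42 members 36 (85.7%) had a difference above 0, with a median of 0.47 on the log2 scale. Over all 17679 genes 51.7% had a difference above 0, with a median of 0.02. All 12 S phase members lay above 0 (median 0.99), as did 24 of 30 mitotic members (median 0.43). In each class some of these signs rested on 1 array, as given below. Set against the DMSO 24 h mean, 90.2% and 85.7% of the members were higher on DMSO 48 h replicates 1 and 3, but 57.5% (23 of 40, median 0.05) on replicate 2, where 52.6% of all genes were. On replicate 2 the mitotic members had a median of -0.07 (13 of 28 above 0) and the S phase members one of 0.53 (10 of 12 above 0). In limma, 0 of 35401 probes had an adjusted p under 0.05 (948 probes, or 2.68%, had an unadjusted p under 0.05). At an unadjusted p under 0.05 there were 5 members, all on the higher side, where 1.72% of all genes lay. In these bulk samples, more dividing cells and more RNA per dividing cell cannot be told apart.

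Cdc20, the activator that lets the anaphase-promoting complex mark cyclins and securin for destruction, had the largest difference. Its probe, like that of Kif20a, is among the 21 weak ones, with a mean under the 6.64 mark, and differences of weak probes are less reliable. Its jointly normalized log2 values were 6.30, 5.67 and 6.28 on the DMSO 48 h arrays, against 3.83 and 4.19 on the DMSO 24 h arrays, replicate 1 of which had no value. The groups did not overlap, and every value at 48 h was at least 1 unit above every value at 24 h. The difference was 2.07 (SE 0.382, limma adjusted p = 1), and it was 1.96 to 2.28 with 1 array left out. Neither of the DMSO 24 h arrays with a value could be left out, so this range does not cover them. Ube2c, the ubiquitin-conjugating enzyme that works with the same complex, read 7.98, 7.08 and 7.66 on the DMSO 48 h arrays and 6.99, 6.28 and 6.51 on the DMSO 24 h arrays. These groups did not overlap either, and the difference was 0.98 (SE 0.353, limma adjusted p = 1).

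Kif20a, a kinesin of the central spindle and of cytokinesis, read 5.78, 5.76 and 5.49 on the DMSO 48 h arrays, against 4.96, 4.51 and 3.36 on the DMSO 24 h arrays. The values at 48 h were close together, those at 24 h were spread, and the groups did not overlap. The difference was 1.40 (SE 0.466, limma adjusted p = 1), and 0.94 without DMSO 24 h replicate 3. Mcm5, a subunit of the replicative helicase, read 8.14, 6.34 and 7.54 on the DMSO 48 h arrays, against 6.76, 4.14 and 5.65 on the DMSO 24 h arrays. Here the groups overlapped, since the lowest array at 48 h was below the highest at 24 h. The difference of Mcm5 was 1.82 (SE 0.676, limma adjusted p = 1), and 1.13 without DMSO 24 h replicate 2.

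Of the usual markers of dividing cells, Cdk1, the kinase that drives mitosis, read 8.89, 7.86 and 8.83 on the DMSO 48 h arrays and 7.50, 8.39 and 8.13 on the DMSO 24 h arrays, with a difference of 0.52 (SE 0.686) that was 0.27 to 0.85 with 1 array left out. Its groups overlapped. Top2a, the topoisomerase that untangles chromosomes, also with a weak probe, read 7.14, 6.04 and 6.96 on the DMSO 48 h arrays, against 5.36 and 5.71 on the DMSO 24 h arrays with a value, with a difference of 1.18 (SE 0.734) and no overlap. Pcna, the sliding clamp of the polymerases, read 11.47, 11.51 and 11.56 on the DMSO 48 h arrays and 11.32 and 11.26 on the DMSO 24 h arrays with a value, with a difference of 0.23 (SE 1.12). Its groups did not overlap, but lay close together. Mcm2, a helicase subunit with a weak probe, read 5.28, 3.76 and 4.75 on the DMSO 48 h arrays and 5.07, 4.11 and 2.67 on the DMSO 24 h arrays, and its difference of 0.65 (SE 0.715) was 0.0074 without DMSO 24 h replicate 3.

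The differences of the other S phase members in vehicle hearts were 1.54 for Mcm6, 1.34 for Mcm7, 1.02 for Mcm4 and 0.58 for Mcm3, further helicase subunits. With 1 array left out they were at the least 0.81 for Mcm6 and 0.63 for Mcm4 (without DMSO 24 h replicate 2) and 0.73 for Mcm7 (without DMSO 24 h replicate 3). Ccne2 and Ccne1, cyclins that start S phase, differed by 1.05 and 0.28, and Cdc6, which loads the helicase onto origins, by 0.14. Rrm1 and Rrm2, the subunits of ribonucleotide reductase that supply DNA building blocks, differed by 1.09 and 0.96. The sign of 3 S phase members rested on 1 array: Rrm1 was -0.54 without DMSO 24 h replicate 1, where its value of -0.26 is the lowest of the array, Ccne1 was -0.04 without DMSO 24 h replicate 2 and Cdc6 was -0.07 without DMSO 48 h replicate 3. A second, dimmer probe of Cdc6 gave -1.41 (SE 0.735).

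The other mitotic members lay on both sides of 0. Ttk, a checkpoint kinase, differed by 1.05. Smc2 of the condensin complex differed by 0.76 and Mad2l1, a checkpoint inhibitor of Cdc20, by 0.69, or 0.35 without DMSO 24 h replicate 3. Mki67, the usual marker of dividing cells, read 9.61, 8.71 and 9.82 on the DMSO 48 h arrays and 8.08, 9.54 and 9.04 on the DMSO 24 h arrays, so the groups overlapped widely, with a difference of 0.49 (SE 0.499) that was 0.09 to 0.82 with 1 array left out. The 6 members below 0 were Kif23 (-1.0), Bub1 (-0.93), Cenpe (-0.92), Melk (-0.49), Ncapd2 (-0.45) and Foxm1 (-0.15). With 1 DMSO array left out, Kif23 came to -0.45 and Bub1 to -0.54 (48 h replicate 3), Cenpe to -0.14 (24 h replicate 2) and Foxm1 to 0.08 (24 h replicate 3). Of the mitotic members above 0, Birc5 and Bub1b fell below 0 without DMSO 24 h replicate 1. Kif2c did so without DMSO 24 h replicate 2, Cenpf without DMSO 48 h replicate 1, and Aurka and Plk1 without DMSO 48 h replicate 3. Counting arrays with a value, 10 members were higher on every DMSO 48 h array than on every DMSO 24 h array, where 6.8% of all genes were, and 2 members, Melk and Ncapd2, were lower on every array, where 5.87% were. Of the 10 only Ube2c, Kif20a and Ncapg had a value on every DMSO array, and the others had a group of 2 arrays. Melk and Ncapd2 had 2 arrays with a value at each time. Groups of 2 arrays separate more easily than groups of 3, so these counts and the shares of all genes are not strictly alike. The median of the members was lowest, at 0.27, without DMSO 24 h replicate 1, and highest, at 0.79, without DMSO 48 h replicate 2.

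**Figure D2:**
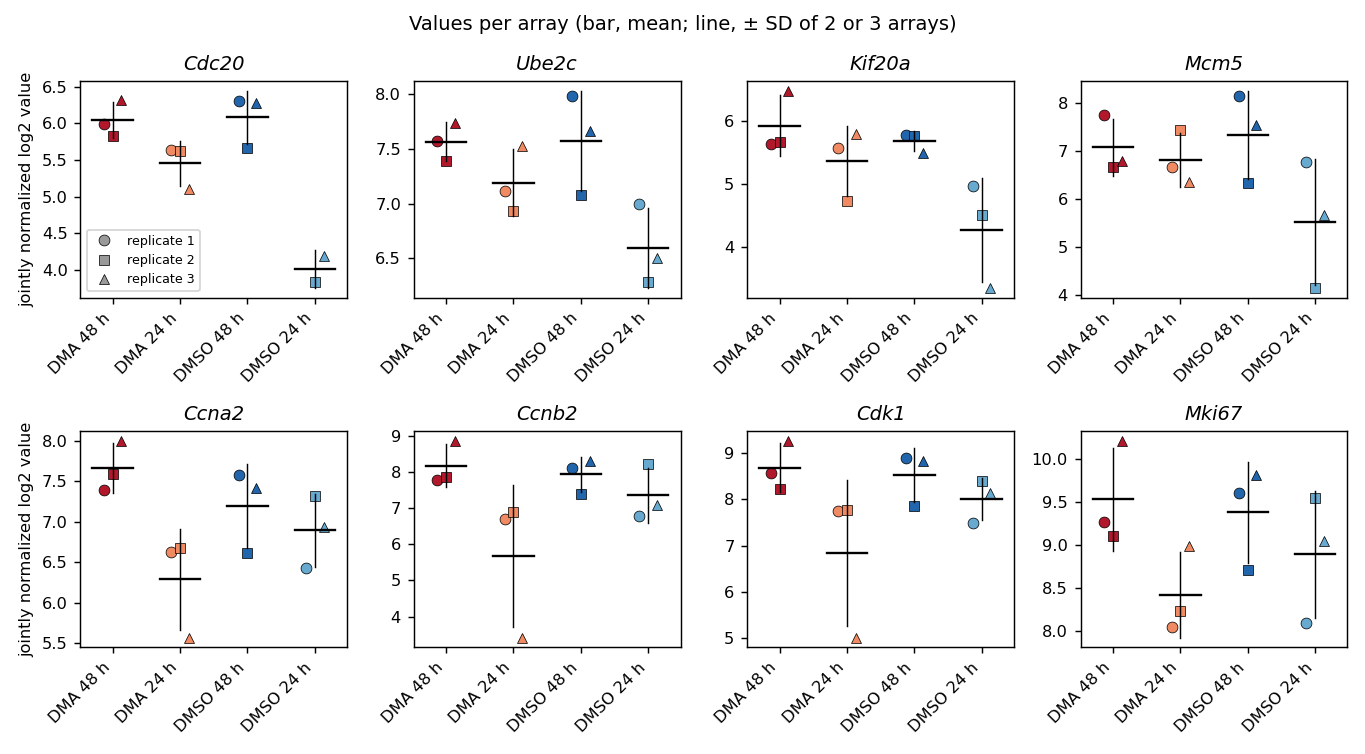
Jointly normalized log2 values of 8 members on every array of the 4 groups; the horizontal bar is the mean and the vertical line ± SD over the 2 or 3 arrays with a value, and marker shapes give the replicate number. Cdc20 was 5.67 to 6.30 on the DMSO 48 h arrays and 3.83 and 4.19 on the DMSO 24 h arrays, while Ccnb2 and Cdk1 were lowest on DMA 24 h replicate 3, at 3.42 and 5.01.

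Hearts given DMA also had higher values for most members at 48 h than at 24 h. The 7 members of smallest p were mitotic genes, as were 30 of the 42 tested members. Of 42 members 31 (73.8%) had a difference above 0, with a median of 0.57, where 48.7% of all genes were above 0 and 51.3% below, with a median of -0.02 (-0.00044 without DMA 24 h replicate 3). The counts were 20 of 30 mitotic members (median 0.57) and 11 of 12 S phase members (median 0.64). Without DMA 24 h replicate 3 they were 23 of 30 mitotic members (median 0.41) and 8 of 10 S phase members (median 0.31). The 9 S phase cyclins and origin licensing genes had a median of 0.26 in DMA hearts, against 1.02 in DMSO hearts. Some signs of S phase members rested on 1 array here too. Mcm4, Mcm5 and Ccne2 fell below 0 without DMA 48 h replicate 1, and Mcm2 without DMA 24 h replicate 1. Mcm4 and Ccne2 also fell below 0 without DMA 24 h replicate 3, where Ccne1 rose above it. No probe passed in limma (0 of 35401 at an adjusted p under 0.05, and 1179, or 3.33%, at an unadjusted p under 0.05). At an unadjusted p under 0.05 there were 7 members, all on the higher side, where 0.871% of all genes lay, and 1.8% on the lower side. There were also 7 when DMA 24 h replicate 3 was left out, and 2 when DMA 48 h replicate 3 was. The shares of all genes in those fits are not given here, so these counts cannot be set against the 0.871%.

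Ccna2, a cyclin of S phase and mitotic entry, read 7.39, 7.59 and 8.0 on the DMA 48 h arrays, against 6.63, 6.67 and 5.57 on the DMA 24 h arrays. The groups did not overlap, and the difference was 1.37 (SE 0.428, limma adjusted p = 0.816), or 1.01 without DMA 24 h replicate 3. Ccnb2, a B-type cyclin that activates Cdk1, read 7.78, 7.87 and 8.86 on the DMA 48 h arrays and 6.71, 6.89 and 3.42 on the DMA 24 h arrays. All values at 48 h were above all at 24 h, but replicate 3 at 24 h was far below the rest: the difference was 2.50 (SE 0.816, limma adjusted p = 0.816) with it and 1.37 without it.

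Cdk1 read 8.57, 8.23 and 9.27 on the DMA 48 h arrays, against 7.75, 7.76 and 5.01 on the DMA 24 h arrays. Its groups did not overlap, and the difference was 1.85 (SE 0.686, limma adjusted p = 0.816), or 0.93 without DMA 24 h replicate 3. Nusap1, a microtubule-binding protein of the spindle, read 8.20, 8.10 and 9.04 on the DMA 48 h arrays and 7.77, 7.20 and 4.09 on the DMA 24 h arrays. It followed the same order, with a difference of 2.09 (SE 0.779, limma adjusted p = 0.816) that was 0.96 without DMA 24 h replicate 3. These 4 genes thus stood higher at 48 h on each array, by amounts that DMA 24 h replicate 3 enlarged.

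Mki67 and Birc5 had no smaller difference without that array. Mki67 read 9.27, 9.10 and 10.21 on the DMA 48 h arrays, against 8.04, 8.23 and 8.99 on the DMA 24 h arrays, and the groups did not overlap. The difference was 1.11 (SE 0.499, limma adjusted p = 0.816), or 1.39 without DMA 24 h replicate 3, and it was smallest, at 0.77, when DMA 48 h replicate 3 was left out. Birc5, survivin of the chromosomal passenger complex, read 8.07, 8.06 and 8.18 on the DMA 48 h arrays, against 7.02, 7.25 and 7.20 on the DMA 24 h arrays. Both groups were tight and far from each other, and the difference was 0.95 (SE 0.394, limma adjusted p = 0.816) with a range of 0.88 to 1.00 over the arrays left out.

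Top2a read 6.97, 6.52 and 6.72 on the DMA 48 h arrays and 5.63, 6.13 and 3.31 on the DMA 24 h arrays, with no overlap. Its difference was 1.71 (SE 0.656), or 0.86 without DMA 24 h replicate 3, and a second, dimmer probe of Top2a gave -0.69 (SE 0.657), or 0.21 without that array. Pcna read 11.56, 11.30 and 12.02 on the DMA 48 h arrays and 11.41, 11.23 and 6.78 on the DMA 24 h arrays, and its difference of 1.82 (SE 1.00) was 0.31 without DMA 24 h replicate 3. Mcm2 overlapped between the times, with 5.28 and 3.91 on the DMA 48 h arrays, replicate 2 having no value, against 3.57, 4.49 and 5.32 on the DMA 24 h arrays. Its difference of 0.14 (SE 0.799) was 0.57 without DMA 24 h replicate 3.

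Among the other members the differences in DMA hearts were 2.28 for Ttk, whose value on DMA 24 h replicate 2 was the lowest of its array, 1.61 for Mcm3, 1.58 for Rrm1 and 1.12 for Mcm7. Ttk differed by 0.60 without DMA 24 h replicate 2, the array of that lowest value, and by 3.36 without DMA 24 h replicate 3. Without replicate 3 Mcm3 differed by 0.38 and Mcm7 could not be tested. Mad2l1 differed by 1.23, or 0.49 without that array, and Cdc20 by 0.59 (SE 0.342), and both were higher on every DMA 48 h array. In all, 10 members were higher on every DMA 48 h array than on every DMA 24 h array, where 2.86% of all genes were. Aurkb, the kinase of the passenger complex, was the 1 member lower on every array, with a difference of -0.82 (-0.56 without DMA 24 h replicate 3), where 3.75% of all genes were. Foxm1, a transcription factor for mitotic genes, had the lowest difference, -1.67 (SE 0.939), with values of 6.59, 6.43 and 4.01 on the DMA 48 h arrays and 6.69, 5.67 and 9.66 on the DMA 24 h arrays; both replicate 3 arrays were far from the others. Without DMA 24 h replicate 3 the difference of Foxm1 was -0.51, without DMA 48 h replicate 3 it was -0.83, and without both replicate 3 arrays it was 0.33. The median of the members was 0.38 without DMA 24 h replicate 3, over the 40 members that could then be tested.

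**Figure D3:**
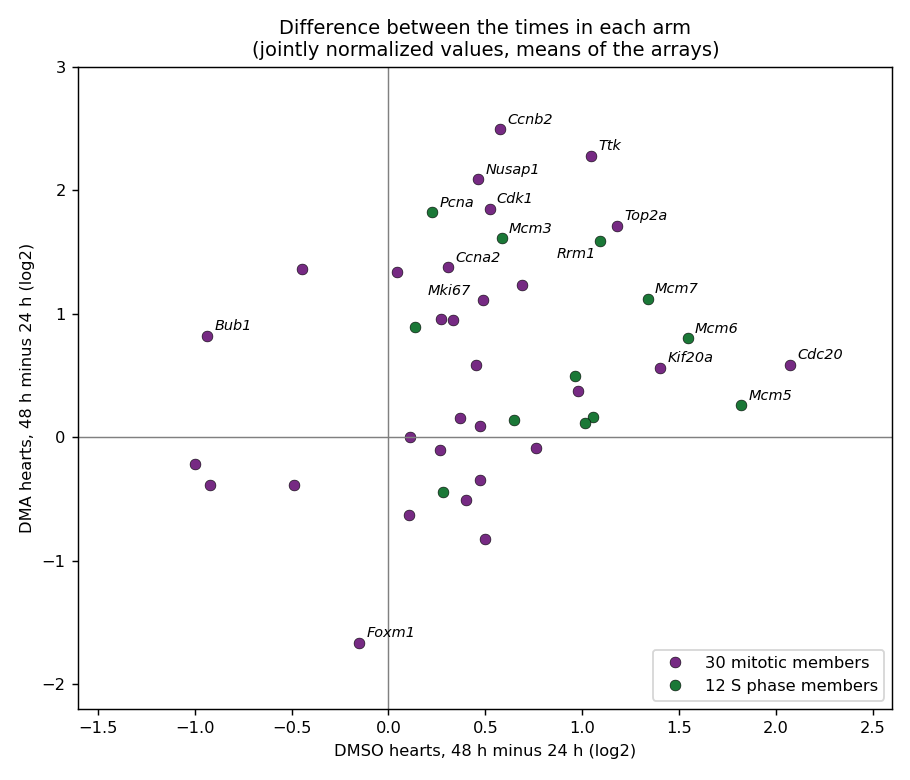
Difference between 48 h and 24 h (log2, jointly normalized) in DMSO hearts (horizontal axis) and in DMA hearts (vertical axis) for the 42 tested members; each point is 1 gene, purple for mitotic and green for S phase members. Above 0 on both axes lie 29 members, with Cdc20 (2.07) and Mcm5 (1.82) farthest right and Ccnb2 (2.50) highest, and Foxm1 (-1.67) is lowest.

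The comparisons between the times in DMA and in DMSO hearts share no array, although same-numbered DMA and DMSO arrays of a time deviated together. In both arms 29 of 42 members (69.0%) were higher at 48 h, where 28.7% of all genes were, and 4 were lower in both. By class these were 11 of 12 S phase and 18 of 30 mitotic members. Among the 21 brighter members 18 were higher in both, and among the 21 under the 90% quantile of the vomeronasal probes 11 were. Without DMA 24 h replicate 3 the count was 28 of 40 members (70.0%), against 25.9% of all genes.

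With both arms averaged, a comparison added after the data were seen, 33 of 42 members were above 0 with a median of 0.61, and limma again called 0 of 35401 probes (1232, or 3.48%, had an unadjusted p under 0.05). At an unadjusted p under 0.05 were 13 members, all on the higher side, where 1.62% of all genes lay. Without DMA 24 h replicate 3 there were also 13, but the share of all genes in that fit is not given here. Cdc20 differed by 1.33 (SE 0.256, limma adjusted p = 0.862). Counting the arrays with a value, Cdc20 was also the 1 member whose arrays at 48 h all lay above all its arrays at 24 h, DMA and DMSO together, which held for 20 of 17679 genes (0.113%), or for 55 genes (0.311%) without DMA 24 h replicate 3. The margin was small, since the lowest value at 48 h was 5.67 (DMSO replicate 2) and the highest at 24 h 5.64 (DMA replicate 1). Kif20a differed by 0.98 (SE 0.329) and Top2a by 1.45 (SE 0.492), while the second probe of Top2a gave -0.07 (SE 0.465). Without DMA 24 h replicate 3 they were 1.02 for the used and 0.37 for the second probe of Top2a. The used probes of all 3 genes are weak. On the deposited scale, which differs between the times, the medians of the members were larger, at 0.88 in DMA hearts and 0.85 in DMSO hearts.

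Other cell cycle genes were described from separate lists, of which no gene passed in either arm. Of 40 other mitotic genes 26 were above 0 in DMA hearts (median 0.35) and 29 in DMSO hearts (median 0.28). Of 30 other replication genes 25 were above 0 in DMA hearts (median 0.66) and 23 in DMSO hearts (median 0.24). Nuf2, of the kinetochore complex that grips microtubules, differed by 1.53 (SE 0.381) and Pbk, a mitotic kinase, by 2.23 (SE 0.583) in DMSO hearts. In DMA hearts Hmmr, a spindle protein, differed by 0.94 (SE 0.375) or 0.59 without DMA 24 h replicate 3, and Mybl2, a transcription factor that acts through CHR promoters, by 1.10 (SE 0.478). Of 17 genes for E2F, MuvB and pocket proteins, the regulators of these promoters, 8 were above 0 in DMA hearts (median -0.05) and 8 in DMSO hearts (median -0.0019). G1 cyclins, their kinases and Myc were above 0 for 4 of 10 genes in DMA hearts (median -0.01) and for 9 of 10 in DMSO hearts (median 0.34). Cell cycle brakes were above 0 for 12 of 17 genes in DMA hearts (median 0.46) and for 13 of 17 in DMSO hearts (median 0.30). The medians in DMA hearts without DMA 24 h replicate 3 were 0.27 for the other mitotic genes, 0.21 for the other replication genes, 0.16 for the E2F, MuvB and pocket protein list, 0.02 for the G1 list and 0.11 for the brakes. Among the brakes Chek1, a kinase of the DNA damage checkpoint, differed by 0.83 (SE 0.351) and Cdkn1a, the p21 inhibitor, by -1.04 (SE 0.470) in DMSO hearts.

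Markers of cell types that can divide in the heart were set beside these values. Endothelial markers had a median difference between the times of -0.17 in DMA hearts (4 of 13 above 0) and 0.63 in DMSO hearts (11 of 13 above 0). For fibroblast markers the medians were 0.37 in DMA hearts and 0.46 in DMSO hearts, with 6 of 10 above 0 in each. Macrophage markers had medians of -0.05 in DMA hearts and -0.12 in DMSO hearts, and lymphocyte markers of -0.14 in DMA hearts and -0.08 in DMSO hearts. Erythroid markers had medians of -0.54 and 0.03 in DMA and DMSO hearts, smooth muscle and pericyte markers of 0.31 and 0.10, and the 5 cardiomyocyte markers of 0.43 and -0.07. Several of these medians in DMA hearts rested on DMA 24 h replicate 3. Without it they were -0.34 for endothelial (0 of 12 above 0), 0.25 for fibroblast, -0.71 for macrophage, 0.02 for lymphocyte, -0.17 for erythroid, -0.31 for smooth muscle and pericyte and 0.20 for cardiomyocyte markers. Relative to the DMSO 24 h mean, the per-array median of the endothelial markers ran from -0.07 to 0.57 on the DMA 48 h arrays, from -0.25 to 0.86 on the DMA 24 h arrays, from 0.58 to 0.72 on the DMSO 48 h arrays and from -0.27 to 0.84 on the DMSO 24 h arrays. The part of these cell types in the members' values was not tested.

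Between DMA and DMSO hearts at 24 h the members went both ways and no gene passed. On the deposited values 22 of 42 members (52.4%) were above 0 with a median of 0.14, where 55.2% of all genes were and their median was 0.09. Without DMA 24 h replicate 3 the median of the members was -0.0046 (20 of 40 above 0), and that of all genes 0.00048. Mitotic members had a median of -0.32 (13 of 30 above 0), or -0.13 without that array, and S phase members one of 0.46 (9 of 12 above 0), or 0.47 without it. In limma 0 of 35401 probes passed, with 1071 (3.03%) at an unadjusted p under 0.05. Cdc20 and Kif20a were the 2 members at an unadjusted p under 0.05, both higher, where 2% of all genes lay, and 0 members were lower, where 0.82% lay. Among the 21 brighter members 7 were above 0 (median -0.45), and among the other 21 members 15 were (median 0.50). This contrast lay mostly in pair 3, which holds DMA 24 h replicate 3: the pair medians were -0.03, -0.04 and -1.06 for the brighter members and 0.12, 0.21 and 0.85 for the others. Without that array the medians were -0.20 and 0.11 over 20 members each, the brighter ones first.

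Cdc20 read 5.52, 5.50 and 5.04 on the DMA 24 h arrays, against 3.81 and 4.17 on the DMSO 24 h arrays with a value. The groups did not overlap, and the difference was 1.36 (SE 0.390, limma adjusted p = 0.871). It ran from 1.28 to 1.52 over the arrays that could be left out, which excludes both DMSO 24 h arrays with a value. At 48 h the same gene read 6.14, 5.96 and 6.49 on the DMA arrays and 6.46, 5.79 and 6.45 on the DMSO arrays, with a difference of -0.04 (SE 0.348) that was -0.26 to 0.08 with 1 array left out. On jointly normalized values the means were 6.04 ± 0.248 in DMA hearts at 48 h, 5.46 ± 0.305 in DMA hearts at 24 h and 6.08 ± 0.360 in DMSO hearts at 48 h (SD, n = 3 each), against 4.01 in DMSO hearts at 24 h over 2 arrays. The lowest Cdc20 values were thus those of vehicle hearts at 24 h, with DMA hearts at 24 h between them and the 48 h hearts.

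Kif20a was higher after DMA in each same-numbered pair at 24 h, by 0.55, 0.22 and 2.32. Its values were 5.45, 4.70 and 5.66 on the DMA 24 h arrays and 4.90, 4.48 and 3.34 on the DMSO 24 h arrays, and the groups overlapped. The difference was 1.03 (SE 0.463, limma adjusted p = 0.871), or 0.58 without DMSO 24 h replicate 3. Aurkb was also higher in each pair, by 0.29, 1.05 and 0.87, and its groups did not overlap, with a difference of 0.74 (SE 0.396), or 0.49 without DMA 24 h replicate 3. Ube2c had pair differences of 0.11, 0.61 and 0.97, and Plk1, a kinase of centrosomes and of mitotic exit, of 0.76, 0.20 and 0.55.

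Several lower values after DMA at 24 h rested on DMA 24 h replicate 3. Ccnb2 read 6.51, 6.68 and 3.41 on the DMA 24 h arrays and 6.57, 7.93 and 6.86 on the DMSO 24 h arrays, with a difference of -1.59 (SE 0.782, limma adjusted p = 0.871) that was -0.53 without DMA 24 h replicate 3. Nusap1 read 7.51, 6.96 and 4.08 on the DMA 24 h arrays and 7.47, 8.10 and 7.55 on the DMSO 24 h arrays, and its difference of -1.52 (SE 0.738, limma adjusted p = 0.871) was -0.47 without that array. The first pair was nearly equal for both genes, the second lower by about 1 unit and the third lower by over 3. Cdk1 read 7.49, 7.50 and 4.95 on the DMA 24 h arrays and 7.25, 8.10 and 7.86 on the DMSO 24 h arrays, and its difference of -1.09 (SE 0.655) was -0.24 without that array. Ncapd2, a condensin subunit with values in 2 pairs, had pair differences of -0.52 and -4.22. Ncapd2 was lower on every DMA array than on both DMSO arrays with a value, with a difference of -1.95 (SE 0.955), or -0.84 without replicate 3.

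The usual markers of dividing cells at 24 h pointed no single way. Mki67 read 7.77, 7.94 and 8.71 on the DMA 24 h arrays and 7.80, 9.22 and 8.75 on the DMSO 24 h arrays, with pair differences of -0.04, -1.28 and -0.04. Its difference of -0.45 (SE 0.498) was -0.74 without DMA 24 h replicate 3, and -0.14 when the highest array, DMSO 24 h replicate 2, was left out. Top2a read 5.51, 5.98 and 3.30 on the DMA 24 h arrays and 5.26 and 5.59 on the DMSO 24 h arrays with a value, and its difference of -0.50 (SE 0.713) was 0.32 without DMA 24 h replicate 3. Pcna read 11.11, 10.92 and 6.60 on the DMA 24 h arrays and 11.02 and 11.01 on the DMSO 24 h arrays with a value. It was level apart from DMA 24 h replicate 3, and the difference of -1.47 (SE 1.09) was 0.0016 without that array. Mcm2 read 3.55, 4.46 and 5.24 on the DMA 24 h arrays and 5.01, 4.09 and 2.62 on the DMSO 24 h arrays, and its difference of 0.51 (SE 0.714) was 0.10 without DMA 24 h replicate 3. Its groups overlapped, and the highest array of one group had the number of the lowest of the other.

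Mcm5 had pair differences of -0.10, 3.07 and 0.65, where DMSO 24 h replicate 2 read 4.12, and its overall difference of 1.21 (SE 0.662) was 0.57 without that array. In all, 4 of the 33 members with 3 pairs were higher in every pair, where 12.4% of all genes were, and Ccnb2, Ttk and Mki67 were lower in every pair, where 9.49% were. By groups, 2 members were higher on every DMA array, Aurkb and Cdc20, where 4.43% of all genes were, and Ncapd2 was lower, where 3.3% were.

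At 48 h the members of DMA and DMSO hearts were close together. Of 42 members 24 (57.1%) were above 0, with a median of 0.01, where 51.4% of all genes were above 0 and 48.6% below, with a median of 0.01. With 1 array left out the median of the members ran from -0.17 (without DMSO 48 h replicate 2) to 0.18 (without DMSO 48 h replicate 1), so its sign is not settled. The interquartile range of the members was -0.19 to 0.18. In limma 0 of 35401 probes passed (494, or 1.4%, at an unadjusted p under 0.05), and 0 members had an unadjusted p under 0.05, where 0.634% of all genes were on the higher and 0.385% on the lower side.

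Bub1, a kinase of the spindle checkpoint, had the smallest p. It and the 3 members that follow, Kif23, Bub1b and Aurkb, have weak probes with means under the 6.64 mark, and their order is less reliable for it. Bub1 read 5.22, 4.88 and 5.02 on the DMA 48 h arrays, against 4.74, 3.85 and 3.10 on the DMSO 48 h arrays. It was higher in each pair and the groups did not overlap, with a difference of 1.15 (SE 0.739, limma adjusted p = 1) that was 0.75 without DMSO 48 h replicate 3, while a second, dimmer probe gave -0.03 (SE 0.941), and -0.37 to 0.33 with 1 array left out. Kif23, a kinesin of cytokinesis, read 2.96, 4.21 and 4.94 on the DMA 48 h arrays and 4.16, 3.09 and 2.14 on the DMSO 48 h arrays, a wide overlap with a difference of 0.91 (SE 0.635, limma adjusted p = 1) that was 0.41 to 1.44 with 1 array left out, lowest without DMSO 48 h replicate 3. Bub1b, another checkpoint protein, read 4.81, 4.86 and 3.42 on the DMA 48 h arrays and 5.37, 4.35 and 5.76 on the DMSO 48 h arrays. Its groups overlapped, and the difference of -0.80 (SE 0.614, limma adjusted p = 1) ran from -1.20 to -0.33 with 1 array left out, nearest to 0 without DMA 48 h replicate 3.

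Aurkb read 5.67, 5.26 and 4.70 on the DMA 48 h arrays, against 5.76 and 5.77 on the DMSO 48 h arrays with a value. It was lower on every DMA array, with a difference of -0.56 (SE 0.443, limma adjusted p = 1) that was -0.31 without DMA 48 h replicate 3. Its order was opposite to that at 24 h. Rrm1 was higher on every DMA array, with pair differences of 0.78, 0.14 and 2.25. Together 2 members were higher on every DMA array, where 3.93% of all genes were, and 1 was lower, where 2.32% were. In every pair 3 of 37 members were higher (Bub1, Ccne1 and Rrm1), where 15.1% of all genes were, and 1 was lower (Ncapg), where 9.79% were.

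For the usual markers at 48 h, Mki67 read 9.59, 9.41 and 10.53 on the DMA arrays and 9.89, 9.0 and 10.12 on the DMSO arrays, with a difference of 0.17 (SE 0.498). Cdk1 read 8.87, 8.51 and 9.59 on the DMA arrays and 9.17, 8.12 and 9.13 on the DMSO arrays, with a difference of 0.18 (SE 0.655). In both genes replicate 2 was the lowest array in DMA and in DMSO hearts alike. Top2a read 7.19, 6.71 and 6.92 on the DMA arrays and 7.35, 6.19 and 7.17 on the DMSO arrays, with a difference of 0.03 (SE 0.638). Pcna read 11.86, 11.59 and 12.31 on the DMA arrays and 11.68, 11.76 and 11.82 on the DMSO arrays, with a difference of 0.16 (SE 0.971). Mcm2 read 5.37 and 3.93 on the DMA arrays with a value and 5.37, 3.77 and 4.79 on the DMSO arrays, with a difference of 0.01 (SE 0.799). In all 5 genes the groups overlapped. With SEs of 0.498 to 0.971, a difference of 1 log2 unit either way would not have stood out in these genes.

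**Figure D4:**
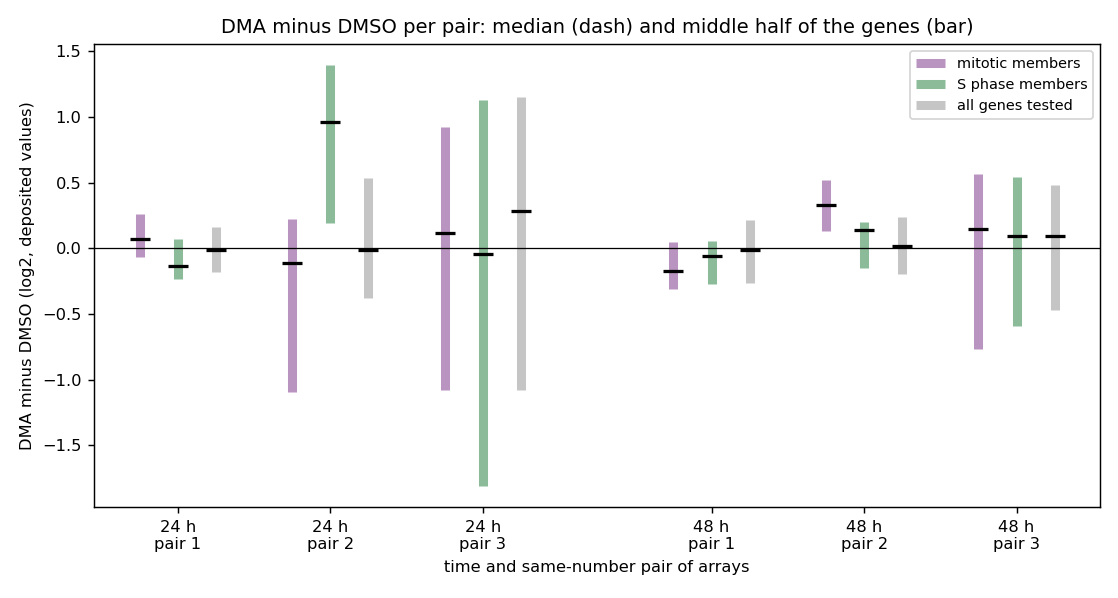
DMA minus DMSO (log2, deposited values) within each same-numbered pair of arrays at 24 h and 48 h; the dash is the median and the bar the interquartile range of the genes, for mitotic members, S phase members and all genes tested. At 24 h the S phase members have a median of 0.97 in pair 2, where cell type markers, not drawn, also had medians above 0. All groups are wide in pair 3 at 24 h, and at 48 h the pair medians of the mitotic members are -0.17, 0.33 and 0.15.

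Pair by pair, the median of all members with a value was 0.01, 0.03 and 0.06 at 24 h and -0.16, 0.22 and 0.09 at 48 h. The S phase members had pair medians of -0.14, 0.97 and -0.04 at 24 h, so their median was above 0 in pair 2 only. Single S phase members differed from this: Mcm2 (2.62), Ccne1 (1.51) and Mcm7 (1.74) were highest in pair 3, and Rrm1 (4.84) in pair 1, where its DMSO value was the lowest of the array. In pair 2 at 24 h every cell type list also had a median above 0, from 0.05 for erythroid to 0.79 for endothelial markers. The median of all genes in that pair was -0.01, so the shift was not particular to S phase members. At 48 h the sign of the median of all members differed between pair 1 and the other 2 pairs.

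The test of the difference between the DMA effects at 48 h and at 24 h also called 0 of 35401 probes (695, or 1.96%, at an unadjusted p under 0.05). Cdc20 had a difference of effects of -1.40 (SE 0.523, limma adjusted p = 0.999) and was the 1 member at an unadjusted p under 0.05, where 0.95% of all genes lay on that side and 0.56% on the other. Aurkb had -1.30 (SE 0.595) and Bub1 1.81 (SE 1.04), and without DMA 24 h replicate 3 the value was -1.56 for Cdc20, -1.05 for Aurkb and 2.72 for Bub1 (SE 0.744, limma adjusted p = 0.982). The second probe of Bub1 went the other way, with -1.51 (SE 1.33), or -1.57 (SE 1.49) without that array and -0.095 without DMSO 24 h replicate 3. Over all members 21 of 42 were above 0, where 47.7% of all genes were above and 52.3% below 0, and the median was 0.02.

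Other cell cycle genes did not pass between DMA and DMSO either. At 24 h 17 of 40 other mitotic genes were above 0 (median -0.10) and 13 of 30 replication genes (median -0.17), and at 48 h 21 of 40 (median 0.03) and 21 of 30 (median 0.13). Mad1l1, a checkpoint protein, differed by 1.41 (SE 0.434) and Cdc25b, a phosphatase that activates Cdk1, by 1.39 (SE 0.627) at 24 h. G1 cyclins, their kinases and Myc were above 0 for 7 of 10 genes at 24 h (median 0.18) and for 2 of 10 at 48 h (median -0.21), with Ccnd2, cyclin D2, at -0.71 (SE 0.461) at 48 h. The E2F, MuvB and pocket protein list was above 0 for 10 of 17 genes at either time (median 0.15 at 24 h and 0.13 at 48 h). Cell cycle brakes had medians of -0.21 at 24 h and -0.01 at 48 h, with 7 and 8 of 17 genes above 0. The medians at 24 h without DMA 24 h replicate 3 were 0.0049 for the other mitotic genes, 0.08 for the replication genes, 0.14 for the G1 list, -0.06 for the E2F, MuvB and pocket protein list and 0.05 for the brakes. At 24 h 6 of 13 endothelial markers were above 0 (median -0.10), or 10 of 12 without DMA 24 h replicate 3 (median 0.74). At 48 h 0 of 13 were above 0 (median -0.37), and the part of these markers in the members' values was not tested.

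For 6 members (Aurka, Bub1, Kif11, Top2a, Smc2 and Cdc6) a second, dimmer probe was measured. Its difference had the same sign as that of the used probe for 2 of the 6 members between DMA and DMSO at 24 h and for 3 at 48 h, and between the times for 5 in DMA and 3 in DMSO hearts. With both arms averaged it was 2 of 6, and for the difference of the DMA effects also 2. At 24 h the opposite signs of Aurka, Kif11 and Top2a depended on DMA 24 h replicate 3, and that of Kif11 also on DMSO 24 h replicate 3. Without DMA 24 h replicate 3 the used and second probes gave -0.02 and -0.73 for Aurka, 0.13 and 0.21 for Kif11 and 0.32 and 0.71 for Top2a. Then 5 of 6 members had the same sign, Bub1 being the exception.

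In DMSO hearts between the times, Bub1, Cdc6 and Aurka had the opposite sign. Bub1 had -0.93 with the used and 1.81 (SE 0.934) with the second probe, whose value on DMSO 24 h replicate 3, -0.44 on the deposited scale, was the lowest of that array. Bub1 had 0.41 with the second probe when that array was left out, still opposite to the used probe at -1.29. Cdc6 had 0.14 and -1.41 (SE 0.735), the second probe running from -1.78 to -0.90 in the fits that could be made with 1 array left out. Aurka, a kinase of the spindle poles, had 0.11 and -0.32 (SE 0.688), and 0.20 and 0.47 without DMSO 24 h replicate 2. The second probes of the others had the same sign as the used ones: 0.86 (SE 0.460) against 0.27 for Kif11, the motor that pushes spindle poles apart, 0.54 (SE 0.657) against 1.18 for Top2a and 0.19 (SE 0.496) against 0.76 for Smc2. With 1 array left out these second probes ran from 0.34 to 1.16 for Kif11, 0.22 to 0.78 for Top2a and -0.07 to 0.58 for Smc2.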

How the data were processed

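Expression was measured on 12 one-colour arrays of mouse heart RNA, 4 groups of 3. The authors deposited a table of log2 intensities for 36227 probes, with no header on its scaling. The log base was taken from the range of the values, and the background correction and normalization are not given in the sources used here. Per the labels' protocols, cRNA copied from polyA RNA with biotin was stained with Cy5-streptavidin.

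Probes were named through the annotation of the array platform: 21615 had 1 symbol, 681 several and 13931 none. Symbols of 21487 probes were found in RefSeq (GRCm38.p6). Probes with at least 2 values in each group were tested (35401, leaving out 826), and the probe with the highest mean stood for a gene. The test was limma (version 3.58.1, R 4.3.3), with lmFit and eBayes on the 4 group means and Benjamini-Hochberg adjustment over all tested probes and a threshold of 0.05. Missing values were left out of the fit gene by gene, so a group then had 2 arrays. For such a gene neither of these 2 arrays could be left out. DMA was compared with DMSO on the deposited values, and 48 h with 24 h after joint quantile normalization (normalizeQuantiles). The fit was tested on simulated data that had the spread of each probe on the deposited values. There 0% of changes of 1 log2 unit were called in any comparison simulated, and 6% to 30% of changes of 2 units. A count of 0 probes thus does not show that no gene differed. The number of arrays limits the precision.

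The members and lists were chosen with earlier results of these data known, so no p was computed over the members. Values per array are given for Mki67, Top2a, Cdk1, Pcna and Mcm2 and for the 4 members of smallest p in each comparison, and the usual marker Ccnb1 had no probe. Others were named by role, by a gap between the groups or for a list's smallest p. Birc5, Foxm1 and Ncapd2 were described further after their values were seen.

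Same-numbered DMA and DMSO arrays deviated together from their group means (r = 0.110 to 0.186 at 24 h and 0.266 to 0.329 at 48 h), and arrays of different numbers did not (all below 0). Deviations within a group sum to 0, so the values below 0 follow in part from the positive ones and are no separate evidence. For the pair differences the numbers were treated as pairs at each time, with no evidence for pairing beyond these correlations. The main limma tests were not paired and had no term for the replicate number. Between the times same-numbered arrays showed no such pattern (r = -0.13 to 0.11). Alternatives were other scalings, filters on missing and dim probes, a replicate block, fits on the groups compared, array weights, the mean of a gene's probes and leaving out each array. Added after the data were seen were the fits without both DMA replicate 3 arrays, DMSO between the times without DMA 24 h replicate 3 in the spread, the average of both arms, lists and genes without DMA 24 h replicate 3, and the second probes with each array left out. Python 3.11.15 with matplotlib 3.10.9 drew the figures.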

Additional observations from a re-analysis of the deposited data

How the results depend on the processing

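The count of probes that passed was 0 in each comparison and stayed 0 under every alternative run except the leave-one-out fits of DMA against DMSO at 48 h and of DMA hearts between the times, where it was 0 to 1 (1 without DMA 48 h replicate 1), and no member passed under any of them. With the replicate number as a block the median of the members in DMA against DMSO at 24 h was 0.22, against 0.14 without it, and 0 probes passed with the block in any comparison. That 24 h median was -0.32 over probes with a value on every array, -0.32 over probes above the median level, -0.011 without both DMA replicate 3 arrays and 0.019 with array weights, and it ran from -0.21 to 0.14 over single arrays left out, so its sign is not settled. The cause was not tested. Single genes that changed sign at 24 h were Top2a (0.32 without both DMA replicate 3 arrays, 0.19 with array weights, 0.86 as the mean of its probes, -1.02 to 0.32 over single arrays left out), Pcna (0.0016 without both arrays, -2.25 to 0.0016 over single arrays) and Mcm2 (-0.13 to 1.06 over single arrays). At 48 h they were Mcm2 (-0.00053 with arrays centred on their medians, -0.43 with the replicate block, -0.43 to 0.37 over single arrays), Mki67 (-0.17 without both DMA replicate 3 arrays, -0.015 with array weights, -0.17 to 0.40 over single arrays), Cdk1 (-0.12 without both arrays, -0.16 to 0.42 over single arrays), Pcna (-0.031 without both arrays, -0.031 to 0.33 over single arrays) and Top2a (-0.32 to 0.26 over single arrays). Between the times, the medians were 0.88 for DMA, 0.85 for DMSO and 1.09 for both arms averaged on the deposited values, which are scaled within each time. The DMA median was 0.84 over probes above the median level, 0.33 without both replicate 3 arrays, 0.29 with array weights and 0.34 to 0.60 over single arrays left out, always above 0, and the DMSO median was 0.27 to 0.79 over single arrays. The 48 h median of DMA against DMSO was -0.17 to 0.18. Pcna in DMSO hearts was -0.022 with the replicate block, and Mcm2 in DMA hearts was -0.087 with arrays centred and -0.31 to 0.57 over single arrays. The median of the difference between the DMA effects, 0.02, was 0.54 over probes with a value on every array, 0.33 over probes above the median level and -0.24 to 0.20 over single arrays left out. With 3 arrays a group, members near the signal of the vomeronasal probes are the least reliable.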
